A study of Mus musculus with 9 samples.

Results

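Control immunoprecipitations with a non-specific antibody measure what a bead carries when no particular protein is being pulled down. Of the 9 RIP-seq libraries of this study, 6 are described here, namely 3 IgG RIP libraries and the 3 Input libraries against which they were set, chosen by their labels and not by any measured value. All 9 came from the cytoplasmic fraction of cortices taken at postnatal day 0 from mice heterozygous for the CELF2 p.R493H knockin allele, so no group lacks the variant. The cell composition of the fraction is not stated. Markers of neurons, radial glia, astrocytes, the oligodendrocyte lineage, microglia and endothelial cells are described below. Input was an aliquot set aside before any antibody was added. IgG RIP was the rest of the lysate, precleared on protein A/G beads and then kept cold for 3 hours with 10 µg of rabbit IgG that has no set target. The other 3 libraries, CELF2-KI RIP, received 10 µg of rabbit anti-CELF2 antibody in the same way, and their values are given beside those of IgG RIP where they help to read them. The samples were described as biological replicates, with no statement of how many animals went into each.

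An IgG RIP is the usual reference against which an RNA is called bound to the protein of interest, since RNA can also stay on beads that carry no specific antibody. Messenger RNAs of a cell are accompanied by ribosomal RNA, by small RNAs of the translation, splicing and protein-targeting machinery, and by long noncoding RNAs, many of which stay in the nucleus.

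Depth differed between the conditions, from 69125700 to 105116427 estimated counts in Input and from 17365561 to 28773130 in IgG RIP, and between 19462 and 22700 genes had a count in IgG RIP against 24765 to 25277 in Input. The IgG RIP libraries varied more among themselves, with a common biological coefficient of variation of 0.336 when fitted alone against 0.121 for Input. IgG RIP replicate 3 stood apart. On the first principal component of the 500 most variable genes it lay at 83.3, while the other 8 libraries lay between -17.1 and -0.364. Its log2 CPM correlated with those of replicates 1 and 2 at Pearson r = 0.900 and 0.898 across genes, against 0.951 between these 2 replicates, and 574 of the tested protein-coding genes had no count in it, against 107 and 195. Counts for the classes and gene lists that changed without this library are therefore also given without it. Of the called genes named below, Rmrp and Nrn1 lost their call without it and 3 copies of the U3 RNA no longer passed the filter on low counts. CPM here are counts scaled to protein-coding library sizes with TMM factors from edgeR, which trim extreme genes. A gene is called higher or lower in edgeR's quasi-likelihood test where it changed 2-fold or more and its Benjamini-Hochberg adjusted p was below 0.01. Every difference is relative within a library, since the amount of RNA on the beads was not measured.

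The largest difference in share between IgG RIP and Input was that of ribosomal RNA. The 36 rRNA transcripts held 34.9%, 33.0% and 11.0% of all estimated counts in IgG RIP replicates 1 to 3, against 1.48%, 2.28% and 2.15% in Input. In CELF2-KI RIP they held 1.78%, 1.74% and 1.44%. All 3 IgG RIP libraries lay above all 3 Input libraries, which in an exact two-sided permutation test of 3 against 3 gives the smallest p it allows, 0.1. Nearly all of it was 1 transcript, the 45S pre-rRNA, the long precursor from which 18S, 5.8S and 28S rRNA are cut, with 34.9%, 32.9% and 10.8% of counts in IgG RIP and 0.797%, 0.75% and 0.405% in Input. In the transcript fit it was higher in IgG RIP with a log2 fold change of 5.92 (SE 0.70, adjusted p = 0.00467) and of 6.35 without replicate 3. The 28S rRNA gene Rn28s1 went the other way in value, from 7036, 17677 and 18269 CPM in Input to 52.8, 159 and 2127 in IgG RIP, and was not called (log2 fold change -4.20, adjusted p = 0.0828). Replicate 3 was far above the other pull-downs there, and without it the log2 fold change was -7.08 (adjusted p = 0.017). The precursor contains the mature sequences, so reads cannot be divided with certainty between these rows, and only their sum is free of that limit. Reads of rRNA that survived depletion had moreover been filtered out by the authors before counting, so these shares are of what remained.

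**Figure D1:**
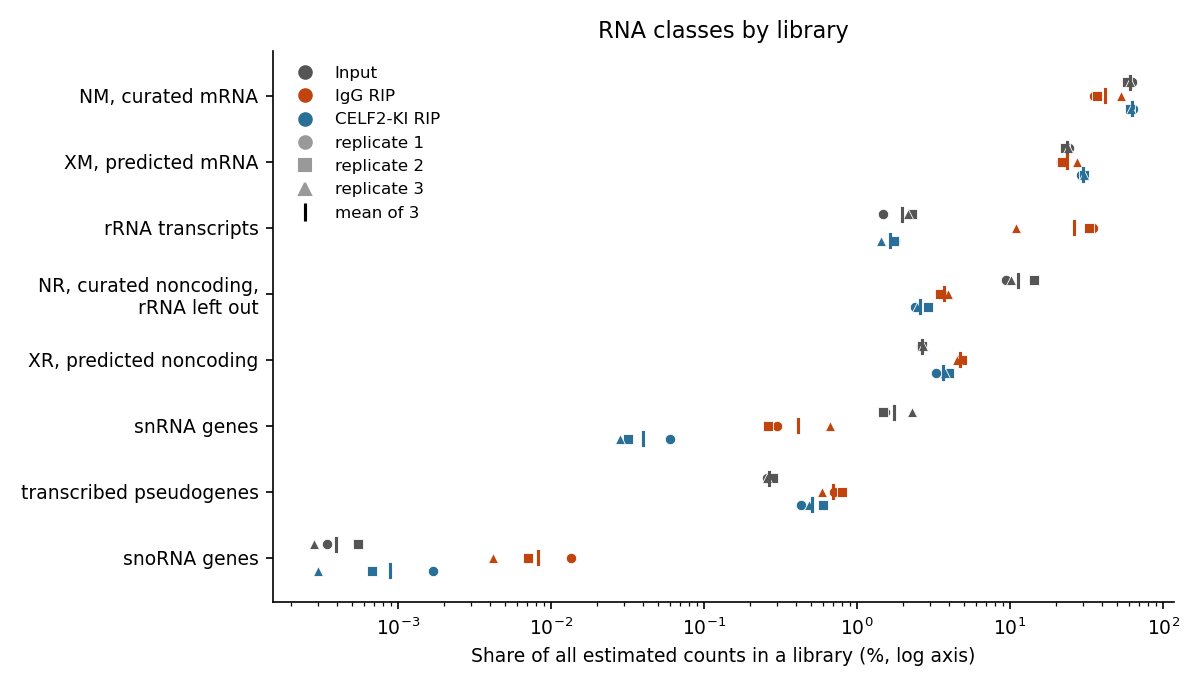
Share of all estimated counts (%, log axis) taken by each RNA class in the 9 libraries, with a marker for each replicate and a bar for the mean of 3. The rRNA transcripts lie between 11.0% and 34.9% in IgG RIP and between 1.48% and 2.28% in Input. The summed share of curated noncoding rows without rRNA lies lower in IgG RIP, which does not hold for most single rows.

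The share of curated mRNA rows (accession prefix NM) was 35.4%, 36.97% and 53.2% in IgG RIP against 62.2%, 57.9% and 61.0% in Input. Predicted noncoding rows (XR) went from 2.61%, 2.67% and 2.71% to 4.74%, 4.87% and 4.48%, with no overlap. Curated noncoding rows (NR) other than rRNA went from 9.42%, 14.4% and 10.1% in Input to 3.59%, 3.48% and 3.96% in IgG RIP, again with no overlap. Each of these 3 differences has p = 0.1 in the exact two-sided permutation test, the smallest possible. With rRNA left out of the total, curated mRNA rows overlapped, at 63.1%, 59.2% and 62.4% in Input and 54.4%, 55.2% and 59.7% in IgG RIP (exact two-sided permutation p = 0.2), while the other 2 classes still did not. Predicted mRNA rows (XM) overlapped between the conditions, with 24.3%, 22.7% and 23.99% in Input and 21.4%, 21.7% and 27.4% in IgG RIP (exact two-sided permutation p = 1.0). With rRNA left out of the total they did not overlap and were higher in IgG RIP, at 32.8%, 32.4% and 30.8% against 24.7%, 23.3% and 24.5% (exact two-sided permutation p = 0.1). The fall of the curated noncoding share did not hold for most single rows. Of 1802 tested, rRNA included, 3.94% were higher and 0.222% lower in the transcript fit, beside 1.87% and 0.936% of all transcripts. Their median log2 fold change was 0.99. The 6 tested structured RNA genes described next summed to 86184, 147984 and 97700 CPM in Input. In IgG RIP they summed to 15612, 11591 and 19877 CPM.

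Among the noncoding genes called lower were small, highly structured cytoplasmic and nuclear RNAs. 7SL, the RNA core of the signal recognition particle that directs ribosomes to the endoplasmic reticulum, is counted as Rn7s1 and Rn7s2, near-identical copies with the same values here. Each had 32220.3, 61242 and 32511 CPM in Input and 4217, 3091 and 4889 in IgG RIP (log2 fold change -3.37, SE 0.38, adjusted p = 0.000193). Every IgG RIP library lay below every Input library. Rpph1, the RNA of the tRNA-trimming enzyme RNase P, had 3433, 6231 and 4572 CPM in Input and 664, 525 and 702 in IgG RIP (log2 fold change -2.91, SE 0.32, adjusted p = 0.000186). Rn7sk, the 7SK RNA that holds the transcription elongation factor P-TEFb in an inactive complex, had 16624, 16896 and 25838 CPM and 5304, 4429 and 8489 CPM (log2 fold change -1.70, SE 0.32, adjusted p = 0.00209). Rmrp, the RNA of RNase MRP, which cuts the rRNA precursor, was closer, with 1685, 2371 and 2266 CPM against 1198, 452 and 905 CPM (log2 fold change -1.31, SE 0.33, adjusted p = 0.00875), and its adjusted p was 0.0132 without IgG RIP replicate 3. Values in CELF2-KI RIP were below those in IgG RIP for all of these, and there Rn7s1 had 441, 179 and 332 CPM and Rn7sk 692, 459 and 342 CPM. The sixth tested member of this list, the telomerase RNA Terc, lay the other way, at 2.43, 2.6 and 1.99 CPM in Input and 11.6, 4.26 and 3.87 in IgG RIP, and was not called (adjusted p = 0.0275). In the list as a whole 5 of 6 genes fell and 0 rose, against 0.597% of the 3518 tested noncoding genes called lower, and the 2 copies of 7SL are not separate measurements. Without replicate 3, 4 fell and Terc was called higher.

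Small nucleolar and Cajal body RNAs, the guides for chemical modification and processing of rRNA and spliceosomal RNA, were mostly higher in IgG RIP. Of 9 tested, 8 were higher in IgG RIP and 0 lower, beside a background of 42.5% of noncoding genes called higher. Of these 8, 3 were copies of the U3 RNA with the same values, at 0 in Input. They could pass the filter only through pull-down libraries, so only a rise could be called for them. Snora73b had 1.32, 2.08 and 1.26 CPM in Input and 93.7, 52.1 and 29.1 in IgG RIP (log2 fold change 5.22, SE 0.58, adjusted p = 0.000189). Its neighbour Snora73a had 1.7, 2.94 and 1.05 and 100.02, 52.4 and 19.5 CPM (log2 fold change 4.90, SE 0.73, adjusted p = 0.000658). They lie side by side on chromosome 4 of GRCm38.p6, from 132352322 to 132352526 and from 132352775 to 132352979, and are close in sequence, so that reads could be split between them. Snord17 had 0.493, 1.04 and 0.647 CPM in Input and 47.7, 15.8 and 4.8 in IgG RIP (log2 fold change 4.95, SE 0.84, adjusted p = 0.00126), with replicate 3 lowest of the 3 pull-downs for all 3 of these RNAs. The Cajal body RNA Scarna13 rose from 24, 37.5 and 30.3 to 195, 93.4 and 108 CPM (log2 fold change 2.11, SE 0.29, adjusted p = 0.000455). Rnu3b1, Rnu3b2 and Rnu3b3, copies of the U3 RNA that guides the first cuts of the 45S precursor, had the same values and count as a single measurement. They were at 0 in all 3 Input libraries and at 9.82, 9.31 and 3.01 CPM in IgG RIP, at least 171-fold higher with each Input library set at a floor of 3 counts, which covers counting error only. The fourth copy, Rnu3b4, overlapped between conditions, with 5.02, 22.3 and 4.33 CPM in Input and 10.7, 0 and 0 in IgG RIP. Reads could be split among the copies, so the bound describes the first 3 rows and not U3 RNA as a whole. Without IgG RIP replicate 3 the first 3 copies did not pass the filter on low counts, and 5 of the remaining members were called higher. Of 128 small nucleolar and Cajal body RNA genes in the table only these 9 passed the filter, and none of 1175 microRNA genes did.

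Long noncoding RNAs rose as a class. Of 3297 tested, 1426 were higher in IgG RIP and 12 lower, with a median log2 fold change of 1.65 (1.84 without replicate 3, when 1941 of 3145 were higher and 23 lower). Over all 3518 noncoding genes 1495 were higher and 21 lower, the 42.5% and 0.597% given above, and 3180 had a log2 fold change above 0. Of the transcribed pseudogenes, 42 of 159 were higher and 3 lower, with a median of 0.99 (63 and 5 of 154 without replicate 3). Of the 3518 noncoding genes, 1176 were below 0.5 CPM in Input and could pass the filter only through the pull-down libraries, which favours a rise. Among genes at 1 CPM or more in Input, 801 of 1527 noncoding genes (52.5%) and 847 of 13999 protein-coding genes (6.05%) were higher, with median log2 fold changes of 1.5 and -0.05. The noncoding median at 20 CPM or more in Input was 0.58, over 85 genes.

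**Figure D2:**
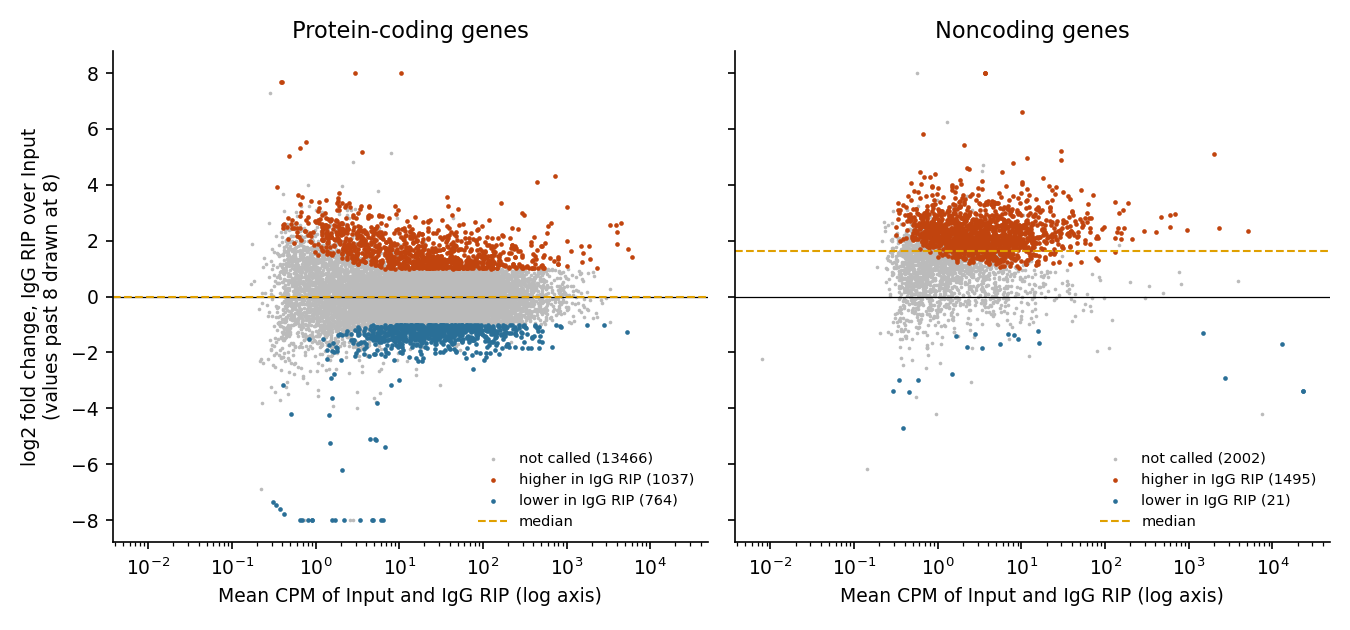
Log2 fold change of IgG RIP over Input against the mean CPM of the 6 libraries (log axis), for protein-coding genes on the left and noncoding genes on the right, with called genes in colour and the median as a dashed line. Protein-coding genes spread on both sides of 0, with 1037 higher and 764 lower, whereas noncoding genes centre on 1.62.

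Among the noncoding genes with the largest rise, AY036118, annotated as a long noncoding RNA, was the highest in counts, with 128, 109 and 99.3 CPM in Input and 5309.7, 4353 and 1887 in IgG RIP (log2 fold change 5.10, SE 0.44, adjusted p = 7.16e-05, 5.43 without replicate 3). In CELF2-KI RIP it had 359, 428 and 180.0 CPM. Replicate 3 was the lowest IgG RIP library, as it was for the 45S pre-rRNA (629001, 566861 and 138887 CPM). Whether reads were shared between them was not tested. Gm42092 had 0.143, 0.286 and 0.162 CPM in Input and 32.5, 23 and 5.37 in IgG RIP (log2 fold change 6.62, SE 0.69, adjusted p = 0.000153). The RIKEN transcripts 1700030L22Rik and 1700123L14Rik rose from 0.238, 0.683 and 0.582 to 8.44, 17.3 and 7.81 CPM and from 1.6, 2.24 and 1.63 to 32.2, 48.4 and 23.8 CPM (log2 fold changes 4.45 and 4.24, adjusted p = 0.000197 and 5.46e-05). Gm38778 and Gm16150 followed, with log2 fold changes of 4.10 and 4.79. Nrg3os, annotated opposite to the neuregulin gene Nrg3, rose from 1.1, 1.4 and 0.954 to 16.3, 25.3 and 15.1 CPM (log2 fold change 4.03, adjusted p = 3.57e-05). Libraries were directional, but the strand setting used for counting is not given in the sources used here, so its reads and those of Nrg3 cannot be told apart. In every one of these genes the lowest IgG RIP library lay above the highest Input library. The other genes outside the structured RNAs among those with the largest fall were the histone pseudogene H2bu1-ps (23.2, 22.2 and 28.5 to 5.57, 8.42 and 9.24 CPM) and the long noncoding RNA 2810025M15Rik (14, 13.7 and 13.2 to 5.75, 3.57 and 4.87 CPM).

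Of 12 tested long noncoding RNAs, most of them known for staying in the nucleus or on chromatin, 6 were higher in IgG RIP and 0 lower, with a median log2 fold change of 1.05 beside 1.62 over all noncoding genes (7 higher and 0 lower without replicate 3). Kcnq1ot1, which silences an imprinted domain on the chromosome that makes it (chromosome 7, 143213111 to 143296547 in GRCm38), had 647, 862 and 643 CPM in Input and 4406, 4848 and 2457 in IgG RIP (log2 fold change 2.44, SE 0.29, adjusted p = 0.000235). Neat1, the scaffold of paraspeckles, rose from 14.2, 17.7 and 19.6 to 51.4, 78.8 and 97.5 CPM (log2 fold change 2.14, SE 0.30, adjusted p = 0.00053). Xist, which coats the inactive X chromosome, rose from 0.302, 0.275 and 0.453 to 5.07, 3.07 and 3.37 CPM (log2 fold change 3.48, SE 0.43, adjusted p = 0.000289). At such low Input levels Xist needed the pull-down libraries to pass the filter on low counts, which favours a rise. Airn and Firre were called too, at log2 fold changes of 1.81 and 1.23. Malat1, a nuclear speckle RNA, had 2985, 3415 and 2987 CPM in Input and 5189, 4929 and 3564 in IgG RIP, which did not overlap but did not meet the threshold (log2 fold change 0.54, adjusted p = 0.0211). Meg3, an imprinted RNA, overlapped between the conditions, with 625, 768 and 682 CPM against 1279, 864 and 695 CPM (adjusted p = 0.177). From the same imprinted region of chromosome 12, Rian had 303, 307 and 269.7 and 461, 366 and 318 CPM and was not called, while Mirg rose from 2.37, 2.14 and 2.23 to 12.8, 12.8 and 5.95 CPM (log2 fold change 2.22, adjusted p = 0.000493). Norad, which unlike most of the list is known as a mainly cytoplasmic RNA, and Pvt1 were close to 0, at log2 fold changes of 0.14 and 0.26. Summed over the 12, the level was 5592, 6483 and 5645 CPM in Input and 13194, 12760.0 and 8506 CPM in IgG RIP, with replicate 3 the lowest of the pull-downs.

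Protein-coding genes were called in both directions. Of 15267 tested, 1037 (6.79%) were higher in IgG RIP and 764 (5.0%) lower, and the median log2 fold change was -0.0036. Which direction had more calls turned with the scaling. Calls of higher genes were 57.6% of all calls, and 46.5% with total counts, 48.0% with DESeq2 size factors, 61.0% with upper-quartile factors and 38.1% with TMM over coding and noncoding genes, which called 777 higher and 1262 lower. Without IgG RIP replicate 3 the calls were 1537 and 1104, of which 978 and 706 were called in the same direction with all libraries. Celf2 itself had 303, 278 and 305 CPM in Input and 267, 231 and 199.7 in IgG RIP and was not called (log2 fold change -0.35, adjusted p = 0.151).

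Messenger RNAs of the spectrin-based membrane skeleton were higher in IgG RIP. Spectrins are long flexible rods that, tied down by ankyrins and actin, form a lattice under the neuronal membrane and at the axon initial segment. Spectraplakins and plakins are related giant linkers between actin, microtubules and intermediate filaments. Of 12 tested genes in this group, drawn up after the values were seen, 8 were higher and 0 lower. Of all protein-coding genes 6.79% were higher and 5.0% lower. The median log2 fold change of the group was 2.25 (11 higher and 0 lower without replicate 3). Summed over the group, the level was 6259, 5771 and 6279.9 CPM in Input and 31271, 30517 and 35177 in IgG RIP.

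Sptbn4, the beta spectrin of axon initial segments and nodes (chromosome 7, 27356383 to 27447704 in GRCm38), had 74.9, 61.1 and 70.8 CPM in Input and 1352, 904 and 1897 in IgG RIP (log2 fold change 4.33, SE 0.29, adjusted p = 3.78e-05). Sptbn1 had 1113, 1028 and 1195 and 6170.3, 6263 and 7334 CPM (log2 fold change 2.57, SE 0.15, adjusted p = 2.28e-05). Their common partner, alpha spectrin Sptan1, rose from 1722, 1560.2 and 1813 to 6341, 5795 and 6759.7 CPM (log2 fold change 1.89, SE 0.14, adjusted p = 4.46e-05). For these 3 genes the IgG RIP libraries lay far above every Input library, and replicate 3 was the highest of the 3. The actin and microtubule linker Macf1 rose from 1306, 1245.03 and 1199.7 to 7294, 7149.8 and 8852 CPM (log2 fold change 2.63, SE 0.15, adjusted p = 2.28e-05), and its relative Dst from 846, 806 and 784 to 3079, 2623 and 2871 CPM (log2 fold change 1.82, SE 0.16, adjusted p = 8.72e-05). Plec, the plakin that ties intermediate filaments to other structures, rose from 190.3, 187 and 212 to 1792, 2029 and 1609.6 CPM (log2 fold change 3.20, SE 0.15, adjusted p = 6.32e-06). The epithelial plakin Eppk1 was called at a far lower level (6.28, 6.04 and 5.61 to 22.1, 25.4 and 22.1 CPM). Dsp, Evpl and Ppl were under 9 CPM in every Input and IgG RIP library and did not pass the test, although Evpl and Ppl passed it without replicate 3.

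Ankyrins, the adaptors that bind spectrin to membrane proteins, were also higher. Ank2 had 1456, 1226 and 1345 CPM in Input and 6448, 5976 and 7604 in IgG RIP (log2 fold change 2.31, SE 0.16, adjusted p = 3.78e-05). Ank3, the ankyrin of the axon initial segment, had 636, 604 and 747 and 2108, 2203 and 2692 CPM (log2 fold change 1.82, SE 0.16, adjusted p = 8.72e-05), and Ank1 had 42, 43.1 and 45.6 and 124, 98.9 and 64.6 CPM (log2 fold change 1.14, SE 0.20, adjusted p = 0.00201). Ank1 and Ank3 were chosen after their values were seen.

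Sptbn1, Ank2, Macf1 and Plec were lower on the anti-CELF2 beads than on the IgG beads. In CELF2-KI RIP Sptbn1 had 1034, 1158 and 1449 CPM and Ank2 1293, 1602 and 1852 CPM, within or near the range of Input. Both were lower in CELF2-KI RIP than in IgG RIP, by log2 fold changes of -2.44 and -2.08 (adjusted p = 5.46e-06 and 8.52e-06). Macf1 and Plec had 1807, 2295 and 2527 and 366, 482 and 476 CPM in CELF2-KI RIP, above Input but below IgG RIP (log2 fold changes against IgG RIP -1.81 and -2.04, adjusted p = 1.08e-05 and 7.74e-06). Comparisons of CELF2-KI RIP and of Input with IgG RIP share the same 3 IgG RIP libraries.

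**Figure D3:**
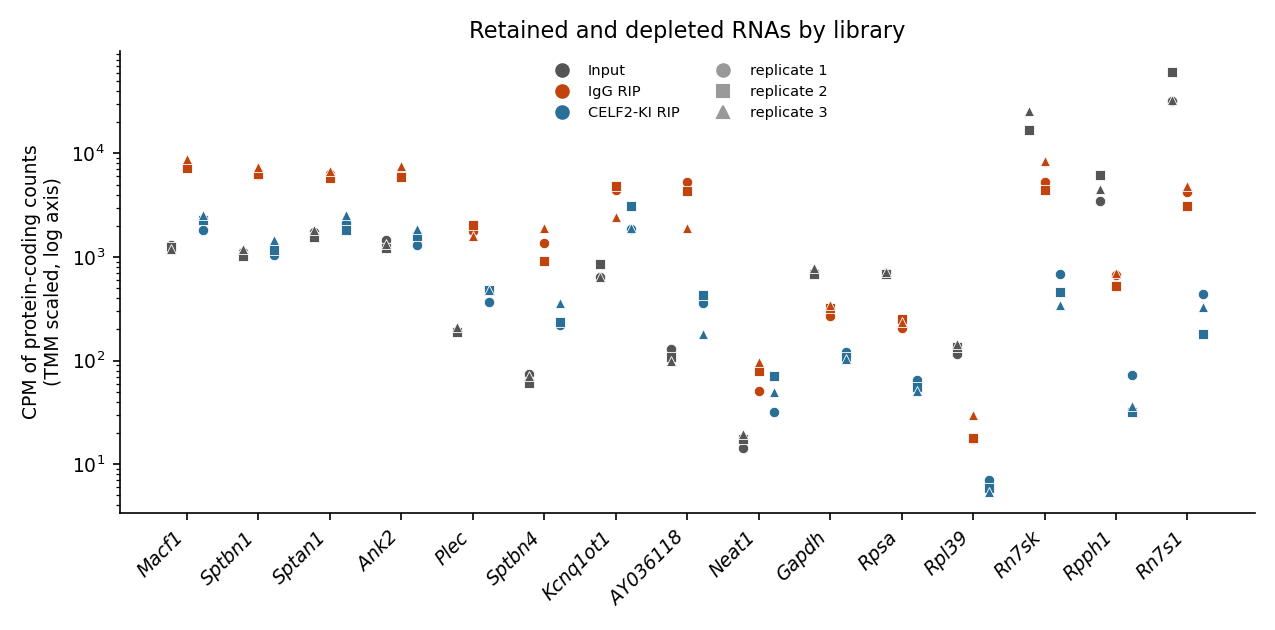
CPM (TMM scaled, log axis) of 15 genes in each of the 9 libraries, with a colour for each condition and a marker for each replicate. From Macf1 to Neat1 the IgG RIP libraries lie above Input, and from Gapdh to Rn7s1 they lie below.

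The 6 called genes with the highest counts among those that rose were Ank2, Macf1, Sptan1, Sptbn1, Dync1h1 and Lrp1. Dync1h1, the heavy chain of the dynein motor that carries cargo toward the cell body, had 2619.6, 2321 and 2744 CPM in Input and 8818, 7717 and 8344 in IgG RIP (log2 fold change 1.69, SE 0.11, adjusted p = 3.78e-05). Lrp1, an endocytic receptor, had 3357, 3184 and 3419 and 9106, 8724 and 8982 CPM (log2 fold change 1.43, SE 0.10, adjusted p = 3.78e-05). Other abundant members of the gene lists were not called. Among them were Map1b, Fat4, Plxna1 and Ncan, at log2 fold changes of 0.29, 0.56, -0.03 and -0.06. CPM are not corrected for transcript length, so these levels order genes by reads and not by molecules.

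By size of change, the leading protein-coding gene was Fez1, an axonal kinesin adaptor, which was at 0 in all 3 Input libraries and at 9.2, 8.72 and 44.6 CPM in IgG RIP, at least 484-fold higher with each Input library set at 3 counts. Replicate 3 was by far the highest, and without it the bound was 208-fold. In CELF2-KI RIP Fez1 had 4.72, 0 and 4.91 CPM. A value of 0 is an estimate for the rows matched to the gene. Reads given to other rows, or to rows of no matched gene, were not traced, so it does not show that the RNA was absent. Rbfox1, a neuronal splicing regulator, rose from 48.5, 51.1 and 48.9 to 956, 1071 and 512 CPM (log2 fold change 4.09, SE 0.30, adjusted p = 4.94e-05), and in CELF2-KI RIP it had 195, 356 and 273 CPM. Of the 41 tested neuronal RNA-binding protein genes, 2 were called higher and 0 lower, beside 6.79% and 5.0% of all protein-coding genes. Their median log2 fold change was 0.07. The Rbfox1 paralog Rbfox2 had 425, 423 and 478 CPM in Input and 447, 429.8 and 489 in IgG RIP. Dvl1, a Wnt pathway scaffold, rose from 4.66, 6.89 and 5.48 to 88.5, 67.7 and 47.2 CPM (log2 fold change 3.58, adjusted p = 0.000167). Rnf169, which acts at DNA breaks, rose from 62.4, 70 and 65.8 to 476, 769.8 and 323 CPM (log2 fold change 2.98, adjusted p = 0.000159). It reversed to -13.0 when only transcript rows with a matching accession version were summed, and its transcripts moved apart as described further on. Stard9, a mitotic kinesin, Plin4, a lipid droplet protein, and Arhgdia, an inhibitor of small GTPases, had log2 fold changes of 3.13, 2.96 and 3.12. The predicted genes Gm31606, Gm43707 and Gm5415, with Sptbn4 and Plec, completed the 12, the predicted genes at 3.35, 3.24 and 3.24. Every gene of the 12 had all 3 IgG RIP libraries above all 3 Input libraries, which was part of how they were named.

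Within the motor proteins, heavy and light chains went apart. Heavy chains carry the motor domain and light chains are small subunits that bind to them. Of 49 tested myosin and dynein heavy chain genes, 14 were higher and 0 lower, with a median log2 fold change of 0.93 (19 and 0 without replicate 3). Of 17 light chain genes, 0 were higher and 6 lower, with a median of -0.89 (1 and 7 without replicate 3). The split was made after the values were seen. Dnah17, an axonemal dynein heavy chain, had the largest rise among the heavy chains, from 8.09, 10 and 11.4 to 81.2, 83.4 and 59.5 CPM (log2 fold change 2.92). Myh9 and Myh10, the nonmuscle myosin heavy chains, rose from 186, 204 and 251 to 649, 669.6 and 705 CPM and from 345, 341 and 382 to 979, 838 and 933 CPM (log2 fold changes 1.66 and 1.37, adjusted p = 0.000117 and 0.000123). Their light chain Myl6 had 111, 113 and 128 CPM in Input and 63.7, 67.5 and 112 in IgG RIP and was not called (adjusted p = 0.0554). Replicate 3 overlapped Input there, and without it the log2 fold change was -0.84. Dynlt1b, a dynein light chain, fell from 125, 119 and 148 to 29.2, 23.7 and 44.9 CPM (log2 fold change -2.0, SE 0.23, adjusted p = 0.00029), while Dync1h1 rose as given above. In the wider lists, 8 of 43 actin and myosin genes (18.6%) rose and 3 (6.98%) fell, against 6.79% and 5.0% of all protein-coding genes (11 and 4 without replicate 3). Of 61 kinesin and dynein genes 6 (9.84%) rose and 4 (6.56%) fell, close to those shares of all genes (8 and 6 without replicate 3).

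Some genes of the extracellular matrix, of the lipoprotein receptor family and of the Notch pathway rose as well. Of 54 collagen and laminin genes 13 (24.1%) were higher and 0 lower, against 6.79% and 5.0% of all protein-coding genes, with a median log2 fold change of 0.71 (15 higher and 0 lower without replicate 3). Col11a2, a cartilage-type fibrillar collagen, rose from 5.94, 6.46 and 5.43 to 57, 40.7 and 15 CPM (log2 fold change 2.66, SE 0.38, adjusted p = 0.00069), with replicate 3 well below the other pull-downs. Col3a1, a meningeal and vascular collagen, rose from 171, 280.4 and 284 to 456, 710.1 and 704 CPM (log2 fold change 1.35, SE 0.28, adjusted p = 0.00403). Hspg2, the basement membrane proteoglycan perlecan, rose from 167, 226 and 275 to 527, 884 and 951 CPM (log2 fold change 1.82, SE 0.27, adjusted p = 0.000826), whereas Dcn, the small proteoglycan decorin, fell from 37.1, 44.1 and 54 to 10.1, 16.8 and 27.8 CPM (log2 fold change -1.30, SE 0.31, adjusted p = 0.008). In the lipoprotein receptor family 3 of 18 genes rose and 0 fell, but the median was only 0.18 and lay between -0.00332 and 0.20 under the other 4 scalings. Notch1 and its ligand Jag2, of a pathway that keeps neighbouring progenitors undifferentiated, were the called members among 9 Notch receptors and ligands, with 349, 328 and 352 against 758, 710.2 and 645 CPM and 76.1, 84.4 and 77.9 against 229.8, 200.1 and 129.8 CPM (log2 fold changes 1.04 and 1.23, adjusted p = 0.000134 and 0.00162). Other cell-surface families had few calls. Of 30 cadherins 2 rose and 0 fell, of 68 protocadherins 2 and 0, and of 73 axon guidance genes 1 and 2. Among 44 neurexins, neuroligins and related adhesion genes 0 rose and 3 fell. Without replicate 3 the last 3 lists had 3 and 2, 4 and 3, and 2 and 4.

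Of 97 remodelers and histone methylation and acetylation enzymes, 7 (7.22%) were higher, a share close to the 6.79% of all protein-coding genes, and 0 were lower. In this list 80 had a log2 fold change above 0 (median 0.41, 11 higher and 1 lower without replicate 3). The 7 were Hdac10, Kmt2b, Kmt2d, Chd5, Chd9, Hdac4 and Chd7. Hdac10, a polyamine deacetylase, had 15, 16 and 16.5 CPM in Input and 63.1, 44.5 and 21 in IgG RIP (log2 fold change 1.44, SE 0.31, adjusted p = 0.00502). Of 363 Zfp zinc finger genes 33 (9.09%) were higher and 6 (1.65%) lower, beside 6.79% and 5.0% of all protein-coding genes, with a median of 0.15 that turned to -0.03 under 1 other scaling (47 higher and 11 lower without replicate 3).

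The mRNAs of the cytoplasmic ribosome were lower in IgG RIP in most cases. Ribosomal proteins are short, and their mRNAs share a translational control through a run of pyrimidines at the cap. Of 81 tested genes, 54 were lower in IgG RIP and 0 higher, against 5.0% of all protein-coding genes lower, and the median log2 fold change was -1.41. Without replicate 3, 64 were lower and the median was -1.54. The summed level was 16821, 16525 and 18154 CPM in Input and 6189, 7003 and 8675 in IgG RIP. Rpl39, a subunit of the peptide exit tunnel (chromosome X, 37082518 to 37085222), fell from 116, 135 and 145 to 17.6, 17.7 and 29.7 CPM (log2 fold change -2.60, SE 0.21, adjusted p = 7.21e-05). Rps29 fell from 165, 174 and 179.5 to 31.4, 36.6 and 38.5 CPM (log2 fold change -2.28, SE 0.12, adjusted p = 1.86e-05), and Rpsa, a small-subunit protein also known as the laminin receptor, from 699, 680.0 and 723 to 207, 255 and 233 CPM (log2 fold change -1.60, SE 0.12, adjusted p = 5.3e-05). Only 2 of the 81 had a log2 fold change above 0, Rps24 and Rpl14, at 0.13 and 0.09. Ribosomal protein genes have many processed pseudogenes, so reads could have been shared with copies.

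Start-site sequences of ribosomal protein genes are shown because the pyrimidine run is what they are known to share. Each window is the 15 bases before and the 15 from the RefSeq start on, with a run of 8 or more C or T in capitals where there is one, from the RefSeq promoter table of GRCm38.p6. The genes are those with 1 annotated start and the lowest log2 fold changes, 4 with a run, 2 without, and 2 of oxidative phosphorylation.
Rpl39, chrX:37085208-37085237, minus strand: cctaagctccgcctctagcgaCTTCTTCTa
Rps27, chr3:90213634-90213663, minus strand: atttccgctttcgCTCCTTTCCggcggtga
Rplp2, chr7:141447636-141447665, plus strand: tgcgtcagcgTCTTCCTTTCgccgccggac
Rpl38, chr11:114668565-114668594, plus strand: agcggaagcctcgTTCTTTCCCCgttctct
Rps12, chr10:23787195-23787224, minus strand: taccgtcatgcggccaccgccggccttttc
Rps13, chr7:116334176-116334205, minus strand: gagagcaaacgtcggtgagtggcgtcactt
Ndufb4b, chr19:25033093-25033122, plus strand: cattgacattaatagtccttaaaaacattg
Uqcr10, chr11:4704330-4704359, minus strand: aagacattgggttctacgcaagcgcagtgg

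The log2 fold changes of these 8 genes were -2.60, -2.15, -2.005, -1.93, -2.05, -2.03, -2.74 and -2.04 in the order shown. A run of 8 or more on the sense strand was found in 27 of 60 ribosomal protein genes in the table (45%) and in 1828 of 12154 tested protein-coding genes (15%). It was found in 8 of 67 oxidative phosphorylation genes (11.9%). Ribosomal protein genes with the run had a median log2 fold change of -1.27, and those without it -1.503. Outside the ribosomal proteins, the 1801 genes with a run had a median of 0.03 and the 10293 without it -0.0001. Window and run length were chosen after the values were seen, out of several that were tried, and a match in a promoter table is a description of letters only.

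Nuclear-encoded subunits of oxidative phosphorylation, the respiratory chain and ATP synthase of mitochondria, fell as well. Of 81 tested, 44 (54.3%) were lower and 0 higher, against 5.0% lower and 6.79% higher of all protein-coding genes. The median log2 fold change was -1.11, and 51 were lower without replicate 3. Atp5mpl, an ATP synthase subunit, fell from 29.6, 31.9 and 31.9 to 3.06, 7.83 and 8.24 CPM (log2 fold change -2.30, SE 0.34, adjusted p = 0.000766). Atp5b, the catalytic beta subunit of the same enzyme, had 728, 698 and 725 and 511, 586 and 709 CPM and was not called (adjusted p = 0.36). Ndufb4b, whose log2 fold change is the lowest of those shown above, did not pass the test. Mitochondrial ribosomal proteins had 11 of 78 (14.1%) lower, 0 higher and a median of -0.58 (3 higher and 16 lower without replicate 3).

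Other groups with a median below 0 included the histones. All lists of this paragraph are set beside 5.0% lower and 6.79% higher of all protein-coding genes. Of 60 replication-dependent histone genes, whose mRNAs end in a stem-loop in place of a poly(A) tail, 18 were lower and 0 higher (median -0.55, 0 higher and 20 lower without replicate 3). H3c10 fell from 29.5, 19.5 and 34.5 to 7.88, 5.15 and 8.53 CPM (log2 fold change -1.94, SE 0.25, adjusted p = 0.000427), but H1f4, with 459, 408 and 510.3 CPM in Input and 604, 655 and 1398 in IgG RIP, lay the other way and was not called. Histone genes of 1 class are close in sequence, and reads may be split among them. In the machinery of the endoplasmic reticulum translocon and signal recognition particle, 5 of 24 genes fell and 0 rose, the 5 being Sec61g, Sec61b, Spcs1, Ssr4 and Dad1 (0 higher and 9 lower without replicate 3). Sec61g, a channel subunit, had 15.4, 16 and 18.3 and 4.07, 4.76 and 5.37 CPM (log2 fold change -1.81, SE 0.18, adjusted p = 0.000156). Tubulins fell in 3 of 14 (4 without replicate 3), led in counts by Tuba1a, with 7654, 6922 and 7669.9 CPM in Input and 2387, 2875 and 3899 in IgG RIP (log2 fold change -1.28, SE 0.23, adjusted p = 0.00196). Of 55 Rab GTPases, regulators of vesicle traffic, 6 fell and 1 rose, beside 5.0% and 6.79% of all protein-coding genes, with a median of -0.46 (1 higher and 7 lower without replicate 3).

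Genes often used as a reference were among those lost. Gapdh, a glycolytic enzyme, fell from 708, 678 and 775 to 266, 321 and 344 CPM (log2 fold change -1.21, SE 0.12, adjusted p = 0.000156). Actb, cytoplasmic actin, went from 4441, 4024 and 4554 to 2111, 2302 and 2542 CPM, with no overlap, but at a log2 fold change of -0.90 it stayed short of the 2-fold limit (adjusted p = 0.00183). Its close relative Actg1 passed, with 2424, 2216 and 2444 and 1071, 1114 and 1318 CPM (log2 fold change -1.02, SE 0.15, adjusted p = 0.000781), as did the elongation factor Eef1a1, with 3813, 3588 and 3876 and 1614, 1755 and 2229 CPM (log2 fold change -1.01, adjusted p = 0.00133). Both lie at the 2-fold limit. In CELF2-KI RIP Gapdh was lower again, at 120.2, 109 and 104 CPM. The proton pump subunit Atp6v0c, the lipid flippase Atp9a and the endosomal protein Nsg2 were the other called genes with high counts that fell, at log2 fold changes of -1.41, -1.03 and -1.08. In CELF2-KI RIP Nsg2 had 2153, 2605 and 2091 CPM and Atp6v0c 1219.9, 1859 and 1213 CPM, beside 1109.9, 1187 and 1150.2 and 707, 722 and 682 CPM in Input.

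Most of the largest falls among protein-coding genes were of low genes, although Rpl39 and Rps29, given above, were among them at higher levels. Vamp7, a vesicle SNARE, had 11.1, 14.3 and 13.5 CPM in Input and 0 in all 3 IgG RIP libraries, at least 55.5-fold lower with each IgG RIP library set at 3 counts. In CELF2-KI RIP it had 8.48, 10.5 and 9.72 CPM. Zfpl1, a Golgi zinc finger protein, had 13.3, 8.38 and 14.3 CPM in Input and 0 in every IgG RIP library (at least 51.4-fold lower), and Zfp821 had 8.98, 10.2 and 10.2 CPM and 0 likewise (at least 41.9-fold lower). The zeros of these 3 genes are again estimates for the rows matched to them. Foxo3, a transcription factor of the insulin pathway, fell from 11.3, 6.42 and 13.3 to 0.438, 0 and 0.358 CPM, and the Golgi protein Yif1b from 12.3, 13 and 14 to 0.813, 0 and 0 CPM. Chmp3, an ESCRT subunit, had 12.9, 9.42 and 20.2 CPM in Input and 1.63, 1.29 and 1.72 in IgG RIP, and was back in the range of Input in CELF2-KI RIP at 18.9, 17.1 and 17.3 CPM. Tbcel, a tubulin cofactor-like protein, fell from 18.7, 14.2 and 19.6 to 2.81, 3.47 and 0.502 CPM and had 29.2, 33.6 and 16.9 CPM in CELF2-KI RIP. B2m, the light chain of MHC class I, and Gng5, a G protein gamma subunit, fell by 2.30 and 2.27 on the log2 scale. Gpr39, an orphan receptor, had 12, 8.55 and 9.55 CPM in Input and 0, 0.694 and 1.5 in IgG RIP (log2 fold change -3.80, and -5.14 without replicate 3).

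Markers of cell types other than neurons did not move as one. The lists of this paragraph stand beside 5.0% lower and 6.79% higher of all protein-coding genes. Of 15 microglia and macrophage markers 7 were lower and 0 higher (median -1.26, 0 higher and 8 lower without replicate 3). Their summed level was 384, 445 and 363 CPM in Input and 188, 245 and 267 in IgG RIP. C1qb, a complement chain, fell from 41.8, 48.6 and 36.8 to 9.01, 12.2 and 13.3 CPM (log2 fold change -1.88, SE 0.18, adjusted p = 0.000134), but the macrophage receptor Mrc1 had 53.1, 75 and 75.1 and 66.6, 93.1 and 115 CPM. The defining receptor Csf1r was listed at 0 in all 3 Input libraries and in IgG RIP replicates 2 and 3, with 1.69 CPM in replicate 1. What part these markers have in other results was not tested. In bulk samples fewer cells of a type and less RNA per cell cannot be told apart, and here both conditions began from the same fraction. Of the erythroid markers, 4 fell and 2 rose among 8. Those that fell were the adult globins Hba-a1, Hba-a2, Hbb-bs and Hbb-bt, with Hba-a1 at 289.8, 354 and 404 CPM in Input and 131, 137 and 146 in IgG RIP, while the globin Hbb-bh2 rose from 3.84, 3.92 and 3.65 to 29.5, 35.5 and 16.9 CPM (log2 fold change 2.84, adjusted p = 0.000194). Globin genes are close in sequence. Meningeal and choroid plexus markers were mixed, with Col3a1 higher and 3 genes lower, Igf2 among them (237, 330.5 and 312 to 90.1, 89.5 and 94.4 CPM).

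Markers of the cell types of the cortex were detected in both conditions. Calls in this paragraph are set beside 5.0% lower and 6.79% higher of all protein-coding genes. All 9 excitatory neuron markers were tested, summed to 1209, 1135 and 1339 CPM in Input and 1201, 1118 and 1184 in IgG RIP, and 1, Nrn1, was called lower. Of 13 interneuron markers 3 fell and of 12 radial glia and progenitor markers 1 fell. None of 9 astrocyte, 10 oligodendrocyte lineage and 14 endothelial and pericyte markers was called by edgeR, with 4, 4 and 5 at an unadjusted p under 0.05 and 1, 0 and 0 called lower by DESeq2. Without replicate 3 no excitatory neuron marker was called by edgeR, 1 progenitor marker was called higher and 1 lower, and 1 astrocyte marker was called higher. Of 27 cortical transcription factors 1, Emx2, was called lower and 0 higher. Among the genes of neuronal excitability, few were called in either direction. Of 15 voltage-gated sodium channel genes 1 rose and 0 fell, of 74 potassium channel genes 2 rose and 0 fell, and of 26 glutamate receptor genes 1 rose and 0 fell, beside a background of 6.79% higher and 5.0% lower. Without replicate 3, 4 potassium channel and 2 glutamate receptor genes rose. None of 16 GABA receptor genes was called by edgeR, with a median of -0.60, 14 of them below 0 and 11 at an unadjusted p under 0.05. DESeq2 called 2 of them lower, and edgeR called 3 lower without replicate 3. None of 24 immediate early genes was called by edgeR (median -0.29, 7 at an unadjusted p under 0.05, 1 called lower by DESeq2). None of 31 Wnt ligands and Frizzled receptors was called either (median -0.21, 10 at an unadjusted p under 0.05, 2 called lower by DESeq2, 1 called lower by edgeR without replicate 3). Synaptic vesicle release genes had 2 higher and 2 lower among 46 (4 and 3 without replicate 3), the scaffold Bsn rising from 513, 436 and 527 to 1163, 1119 and 1031 CPM and Rab3b falling from 35, 31.3 and 40.2 to 13.1, 14.3 and 21.6 CPM. Of 37 splicing factors of the SR and hnRNP families 1 rose and 0 fell.

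**Figure D4:**
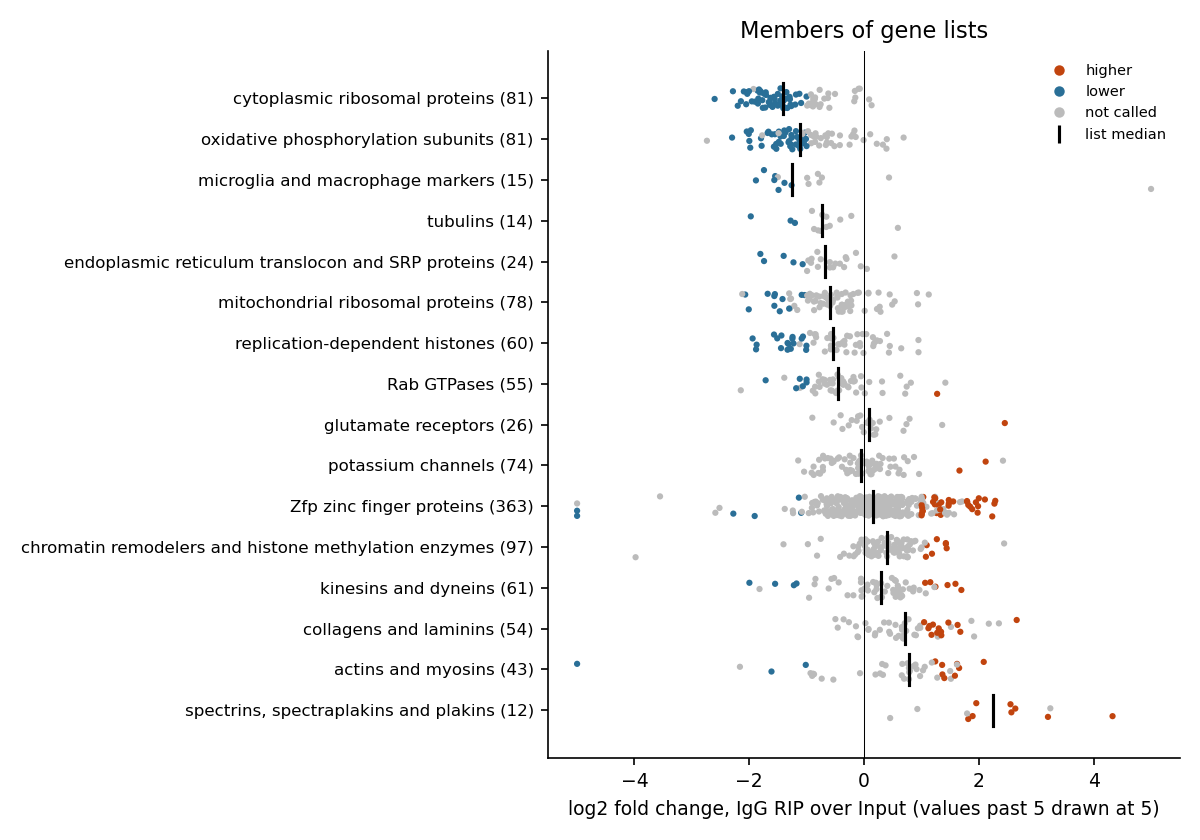
Log2 fold change of IgG RIP over Input for each tested member of 16 gene lists, with called members in colour, the list median as a black bar and the number tested in brackets. Ribosomal proteins and oxidative phosphorylation subunits centre at -1.41 and -1.11, potassium channels near 0, and spectrins, spectraplakins and plakins at 2.25. The list of spectrins, spectraplakins and plakins was drawn up after the values were seen, so its median is not comparable with the others.

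Across all protein-coding genes the fold change went with the genomic span, the distance from start to end of the gene, introns included. In 10 groups of equal size the median log2 fold change went from -0.43 in the shortest group (median span 2.88 kb) through -0.06 in the fifth (21.0 kb) to 0.33 in the longest (233 kb). The share of genes called lower went from 15.5% to 0.589%, and the share called higher from 6.02% to 10.3%. Within the genes above the median of the mean CPM, the shortest and longest groups had medians of -0.54 and 0.33. The Input level went with the fold change mainly at its low end. In 10 groups by Input CPM, the lowest had a median of 0.87 with 14.7% higher, the second 0.12 and the highest -0.13. Genes of the lowest group could pass the filter through the pull-down libraries alone, and sorting on Input uses 1 of the 2 levels compared. These are medians over genes, which are not independent replicates.

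**Figure D5:**
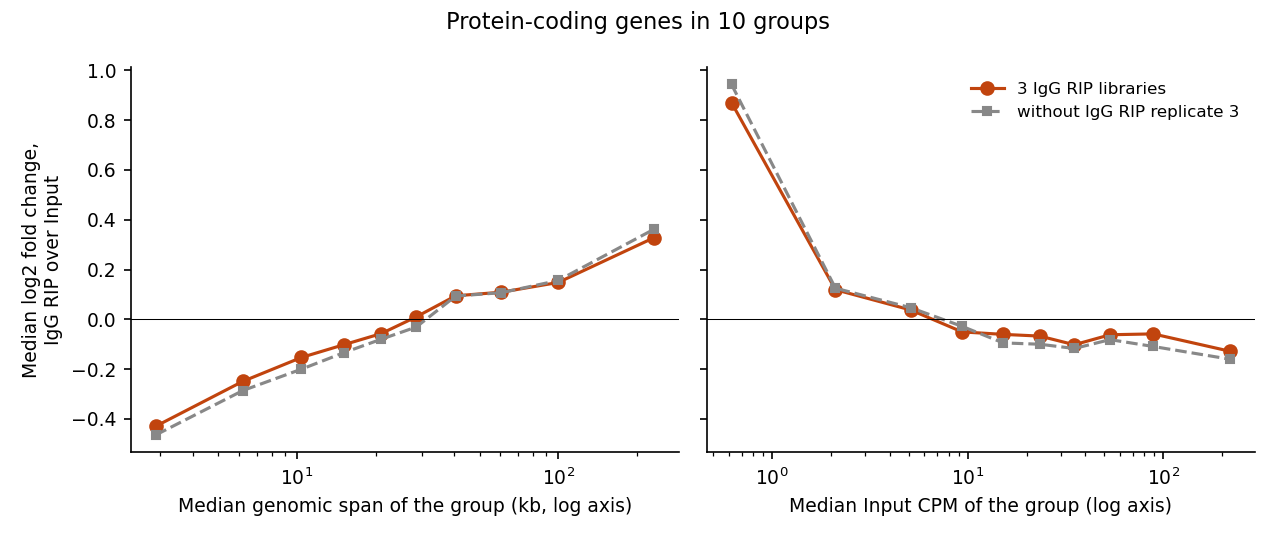
Median log2 fold change of IgG RIP over Input in 10 equal groups of protein-coding genes, ordered by genomic span (left, kb, log axis) and by Input CPM (right, log axis), with all 3 IgG RIP libraries (circles) and without replicate 3 (squares). By span the medians rise from -0.43 to 0.33, and by level they fall from 0.87 to -0.13.

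Single transcripts were less certain than genes. Of 52984 tested, 989 (1.87%) were higher in IgG RIP and 496 (0.936%) lower, and none was called when any 1 Input library was left out, although 10696 to 11336 then had an unadjusted p under 0.05 in edgeR. None was called either with the replicate number as a block. Without IgG RIP replicate 3 the calls were 2273 and 1022. By accession class, curated mRNA rows of protein-coding genes had a median log2 fold change of -0.18 over 19515 transcripts, and predicted mRNA rows 0.45 over 17197. Predicted noncoding rows of protein-coding genes had a median of 0.80 over 1968, and those of noncoding genes 1.79 over 2598. The order was the same without replicate 3, with medians of -0.22, 0.50, 0.87 and 1.97. Curated noncoding rows of noncoding genes had a median of 1.17 over 1292, and 1.33 without replicate 3. Within the 6695 protein-coding genes that had both, predicted mRNA rows lay above curated ones in 4217 genes (63.0%), by a median of 0.49 on the log2 scale. For predicted noncoding rows this held in 939 of 1371 genes (68.5%), by a median of 0.79. Transcripts of a gene share most of their reads, and their division is an estimate.

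In 20 genes at least 1 transcript of 5 CPM or more was called higher and another lower. For Agrn, the heparan sulfate proteoglycan agrin, a predicted transcript was at 0 in Input and at 306, 188 and 154 CPM in IgG RIP, and another at 27.4, 27.9 and 40.4 CPM in Input and 0 in IgG RIP. For Dlg2, the synaptic scaffold PSD-93, 1 predicted transcript went from 11.5, 8.05 and 16.6 to 107, 118 and 76.7 CPM and another from 24.3, 21 and 28.3 CPM to 0. Kalrn, a GTPase exchange factor of dendritic spines, showed the same, with 7.94, 11.4 and 9.09 to 181, 273 and 102 CPM for a predicted transcript and 25.7, 31.5 and 51.3 CPM to 0 for the curated one. The curated Rnf169 transcript likewise went from 31.6, 31.8 and 34.4 CPM to 0 while a predicted one went from 0.35, 0.396 and 0.437 to 20.5, 21.6 and 11.2 CPM. For Mapt, which encodes tau, both were curated, 1 at 0 in Input and at 30.6, 21.1 and 24 CPM in IgG RIP and the other at 58.5, 51.2 and 45.8 CPM in Input and 20.7, 14.2 and 17.3 in IgG RIP. A row at 0 in Input, as for Agrn and Mapt, passed the filter through pull-down libraries alone and could only be called higher. The Mapt row did not pass it without IgG RIP replicate 3. Each of the calls for these genes was lost with those of the transcript fit when an Input library was left out.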

How the data were processed

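RNA was sequenced from 9 rRNA-depleted libraries, 3 each of Input, IgG RIP and CELF2-KI RIP. The authors deposited estimated counts for 107384 RefSeq transcripts, made with kallisto after trimming with fastp and removal of residual rRNA reads with Ribodetector, and not normalised. The strand setting is not given in the sources used here. All columns were used.

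Of these transcripts 86722 matched a gene of the RefSeq mm10 (GRCm38.p6) table without regard to version, and counts were summed per gene and rounded. Protein-coding genes at 0.5 CPM or more in at least 3 of the 9 libraries were fitted in edgeR 4.0.16 (quasi-likelihood test, TMM, mean per condition, all 9 libraries), and p-values were Benjamini-Hochberg adjusted over all genes tested. Noncoding genes and transcripts were fitted with the same library sizes. The 45S and 18S accessions were named by hand. Replicates were described as biological, and their source animals are not given, so p-values measure the spread between these samples. Scripts were tested on simulated data.

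Members and lists were chosen with earlier results of these data known, and the lists of spectrins and plakins, of motor heavy and light chains and of chemosensory receptors were added, and 2 noncoding lists corrected, after values were seen. Named genes were the 12 largest called changes each way among protein-coding genes and the 10 largest rises and 6 largest falls among noncoding genes, at a mean of 10 CPM with no overlap of libraries. To these were added the extreme called and most abundant members of lists with at least 2 called members, the 6 called genes with most counts each way, the genes with transcripts called in opposite directions, all members of 3 noncoding or added lists, and a few reference genes. Protein lengths were not analysed here.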

Additional observations from a re-analysis of the deposited data

Results flagged for a closer look

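Transcript rows that matched no gene of the table entered none of the comparisons between genes. With the 45S precursor left out, 252 of 9955 such transcripts were higher in IgG RIP than in Input and 69 lower in the edgeR transcript fit, and 608 and 157 without IgG RIP replicate 3. Rows of no matched gene held 8.92%, 8.49% and 8.97% of counts in Input and 8.52%, 8.58% and 10.2% in IgG RIP, which overlap. With rRNA left out of the total they held 9.05%, 8.69% and 9.17% in Input and 13.1%, 12.8% and 11.5% in IgG RIP, which do not overlap (exact two-sided permutation p = 0.1, the smallest 3 against 3 allows).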

How the results depend on the processing

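Protein-coding genes called higher and lower numbered 1037 and 764. A test against 2-fold (glmTreat) gave 100 and 53, rows with a matching accession version 545 and 434, and TMM over all genes 1262 lower. Leaving out 1 library at a time gave 555 to 1537 higher and 526 to 1104 lower, the fewest without an Input replicate and the most without IgG RIP replicate 3. The higher share of protein-coding calls was 57.6%, and 46.5%, 48.0% and 38.1% with total counts, DESeq2 size factors and TMM over all genes, the last of which moved the median of all genes to -0.18. For noncoding genes (1495 and 21), glmTreat gave 426 and 3, matching versions 540 and 8, TMM over all genes and DESeq2 each 33 lower, and leaving out 1 library 671 to 2039 higher and 9 to 33 lower.

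Transcripts (989 and 496) gave 512 and 268 with no filter, 52 and 36 with glmTreat, 108 and 58 with 6 libraries only, 447 higher with matching versions, and 1838 and 297 with voom and a weight per condition, which was added after the values were seen. Leaving out 1 library gave 0 to 2273 higher and 0 to 1022 lower. With the replicate block 0 and 0 were called by edgeR, with 12637 at an unadjusted p under 0.05. For genes the replicate block gave 879 and 711, and 1211 and 18 for noncoding genes. Deviations of IgG RIP and Input libraries with the same number correlated at 0.03, 0.06 and 0.04 across genes. The corresponding values of CELF2-KI RIP and Input were 0.11, 0.12 and 0.12. IgG RIP replicate 1 correlated best with Input replicate 2 (0.04), but replicates 2 and 3 did so with the Input of their own number. With the other Input libraries, replicate 2 had -0.08 and 0.009, and replicate 3 had 0.03 and -0.08. Among genes at a mean of 10 CPM or more, equal-numbered IgG RIP and Input libraries correlated at 0.11, 0.07 and -0.009. Input was an aliquot of a lysate, but no source used here says that equal numbers mark 1 lysate, and whether they do is not settled by these values.

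Without rRNA in the denominator the difference of IgG RIP from Input was -5.148 percentage points for curated mRNA rows (-18.5 with it), 3.805 for predicted noncoding rows (2.03) and 7.857 for predicted mRNA rows (-0.181). Among genes above the median level, the longest minus the shortest span group was 0.868 (0.757 over all) and the highest minus the lowest Input group -0.62 (-0.998 over all). Of 3056 values of single genes under an alternative 2748 kept their direction and call, 297 lost and 10 gained a call, and Rnf169 reversed, to -13.0 with matching versions. In each case the cause was not tested. Grouping by protein length was not run.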

Other observations

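Receptors of smell, taste and pheromones, which the cortex is not known for, were higher on the IgG beads in some cases. Of 1508 such genes 20 passed the filter, 7 were higher in IgG RIP and 0 lower (11 and 0 without IgG RIP replicate 3), against 6.79% and 5.0% of all protein-coding genes, and the median log2 fold change was 1.51, beside -0.0036 over all protein-coding genes. Their summed level was 187, 229.96 and 187 CPM in Input and 1171, 1251 and 694 CPM in IgG RIP. The list was made after values were seen, and low genes could pass the filter through the pull-downs alone. Olfr613, an olfactory receptor, took the largest part of that sum, with 75.4, 96.7 and 73.5 CPM in Input and 483, 529 and 303 CPM in IgG RIP (log2 fold change 2.42). Tas1r3, a sweet and umami taste receptor, was far lower, with 3.03, 3.29 and 3.59 CPM in Input and 28.7, 26.3 and 9.67 CPM in IgG RIP (log2 fold change 2.70).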
